A study of Mus musculus with 8 samples.

Results

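The Myc network genes described here are the 5 genes Myc, Mycn, Mycl1, Max and Mxi1, followed as DNA copy level in mouse hepatocellular carcinoma (HCC, the main cancer of liver cells). They were chosen by name, as the probes whose gene name on the array is one of these 5. The 5 are among 25705 gene names on the array. They carry 13 probes of 232626, and 484 probes lie within 0.5 Mb of one of them, their own included.

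Array comparative genomic hybridisation (array CGH) measures DNA copy by hybridising a test and a reference DNA, each in its own dye, to the same oligonucleotide probes. The test DNA came from 6 HCCs of FEAT transgenic mice aged 16, 21, 20, 18.5, 22 and 12 months (tumours 1 to 6), from 1 normal liver of a FEAT transgenic mouse aged 13 months and from 1 normal liver of a wild-type mouse aged 6 months. All were male C57BL/6 mice, and tumour 4 came from a mouse with lung metastasis. The reference DNA on every array came from the liver of a wild-type male C57BL/6 mouse aged 6 months, and the labels do not say whether it was the same animal as the wild-type test liver. FEAT, also known as METTL13, is the transgene product, and its promoter is not named in the labels. Each non-tumour group is 1 array, so neither has a replicate, and these livers differ in age as well as genotype. Each value is a log2 ratio of test to reference DNA, set so that the autosomal median of each array is 0. The SD of probe noise was 0.221 to 0.487 in the tumours, 0.323 in the FEAT normal and 0.221 in the wild-type liver, with tumour 4 the noisiest.

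Myc, Mycn and Mycl1 encode related transcription factors that bind DNA as a pair with Max and drive genes of growth and cell division. Max has no activating part of its own, and Mxi1 competes with the Myc proteins for Max and represses the same kind of genes. In the liver, Myc is low at rest and rises on regeneration, and gain of the chromosome arm that carries MYC is frequent in human HCC.

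The probes that stand for a gene are its physical readout, and 3 of the 5 genes have 1 probe each. The Myc probe lies at chr15:62060783-62060842, the Mycn probe at chr12:13000977-13001036 and the Mycl1 probe at chr4:122445202-122445258. The 3 Max probes start at 74901315, 74909136 and 74915894 on chromosome 12, and the 7 Mxi1 probes span chr19:53224391-53271954. Positions come from the array's annotation. The build it uses is not given in the sources at hand, and neither the strand nor the exon or intron of a probe was determined. The sequences below are those of the Myc family probes, of the 3 Max probes, whose readings disagree, and of the second Mxi1 probe, which read above 0 in all 8 arrays. They are printed as the scanner file gives them, with no stretch singled out in capitals.
Myc: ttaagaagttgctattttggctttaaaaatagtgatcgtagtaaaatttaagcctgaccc
Mycn: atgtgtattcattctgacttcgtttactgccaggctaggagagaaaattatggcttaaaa
Mycl1: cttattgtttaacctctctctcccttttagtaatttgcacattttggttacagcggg
Max probe 1: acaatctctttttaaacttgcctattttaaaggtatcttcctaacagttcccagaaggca
Max probe 2: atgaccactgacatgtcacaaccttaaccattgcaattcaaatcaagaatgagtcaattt
Max probe 3: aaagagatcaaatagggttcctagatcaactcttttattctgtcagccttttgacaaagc
Mxi1 probe 2: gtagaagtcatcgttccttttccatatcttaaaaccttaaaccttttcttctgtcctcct
The Myc probe holds 31.7% G and C, the Mycn probe 36.7% and the Mycl1 probe 38.6%.

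Because single probes are noisy, the copy level of each gene was read from the mean of all probes within 0.5 Mb of it, called its window. The windows hold 79 probes for Myc, 63 for Mycn, 117 for Mycl1, 120 for Max and 105 for Mxi1. They also cover neighbouring genes, such as Ddx1 beside Mycn, Ppt1, Trit1 and Heyl beside Mycl1, Fntb and Gpx2 beside Max, and Add3 and Smndc1 beside Mxi1. The Myc window holds 4 other names, all of them accession-style transcript names. The standard error of a window mean over its probes ranged from 0.02 to 0.06 and covers measurement within 1 array only. In addition, each chromosome was divided into segments of even level, and a segment with a mean at or beyond 0.2 in either direction was called gained or lost.

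Myc, the founding gene of the family, was gained in 2 of 6 tumours and in neither non-tumour liver. Its window read 0.35, 0.06, 0.05, 0.06, 0.29 and 0.03 in tumours 1 to 6, against 0.06 in the FEAT normal and 0.06 in the wild-type liver. Tumours 1 and 5 stood above all other arrays. The other 4 tumours lay below both non-tumour livers, each by less than the standard error of its own window mean over probes. Within the window, 73 of 79 probes were above 0 in tumour 1 and 73 of 79 in tumour 5, against 44 of 79 in the FEAT normal and 40 of 79 in the wild-type liver.

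The window means can be turned into copies if the reference holds 2 and the autosomal median of each array stands for 2. They then correspond to an average of 2.56 copies of Myc in tumour 1 and 2.45 in tumour 5, against 2.09 in each non-tumour liver. The median over the same probes was 0.31 in tumour 1 and 0.24 in tumour 5, against 0.06 in the FEAT normal liver. In the wild-type liver that median was 0.003, below its mean of 0.06. One extra copy in every cell would give a log2 ratio of 0.58. In bulk DNA, a gain in a share of the cells and a smaller average gain in all cells cannot be told apart. Among all named genes of the same array, the Myc window ranked at the 99.6th percentile in tumour 1 and at the 94.6th in tumour 5. It also ranked at the 96.2nd percentile in the FEAT normal liver and at the 91.3rd in the wild-type liver, where its value was 0.06, so that rank alone does not separate the arrays.

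The gain at Myc was broad in both tumours. Myc lay in a segment of 21.4 Mb with a mean of 0.35 in tumour 1 and in a segment of 70.6 Mb with a mean of 0.28 in tumour 5. On chromosome 15, 100% of probes were in gained segments in tumour 1 and 81.8% in tumour 5, against 0% in each non-tumour liver. The chromosome median was 0.30 in tumour 1 and 0.24 in tumour 5, against -0.01 in the FEAT normal and -0.00 in the wild-type liver.

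Moving away from Myc in tumour 1, the mean was 0.35 within 0.5 Mb, 0.43 at 0.5 to 1 Mb, 0.36 at 1 to 2 Mb and 0.31 at 10 to 20 Mb. In tumour 5 the same distances gave 0.29, 0.32, 0.27 and 0.24. In the wild-type liver these distances gave 0.06, 0.07, 0.05 and 0.01. The level at 10 to 20 Mb was thus a few hundredths below that at the gene in the gained tumours and in the wild-type liver alike. The far end of the segment that holds Myc lay between positions 71637458 and 73852126 in 7 of 8 arrays, both non-tumour livers among them.

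In tumour 4 the Myc segment had a mean of 0.11 over 26.3 Mb and was not called. The segment means of the other uncalled arrays were 0.02 to 0.05 in tumours 2, 3 and 6, against 0.02 in the FEAT normal and 0.04 in the wild-type liver. At a stricter threshold of 0.3 the gain was called in 1 tumour, tumour 1.

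**Figure D1:**
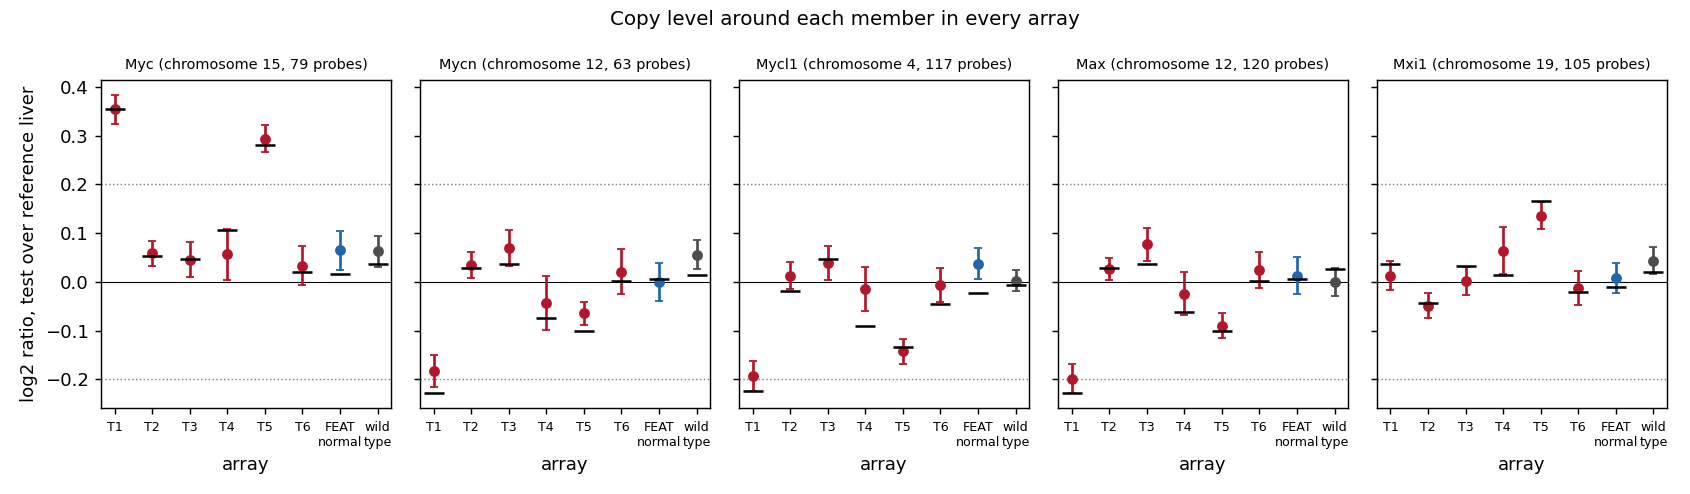
Mean log2 ratio of test over reference liver (vertical axis) of the probes within 0.5 Mb of each gene, 1 panel per gene, in tumours 1 to 6 (T1 to T6) and the FEAT normal and wild-type livers. Whiskers are 1 standard error over probes, black bars the mean of the segment that holds the gene, and dotted lines the calling threshold of 0.2 in either direction. Myc stands at 0.35 in tumour 1 and 0.29 in tumour 5, while Mycn, Mycl1 and Max lie at -0.18 to -0.20 in tumour 1.

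**Figure D2:**
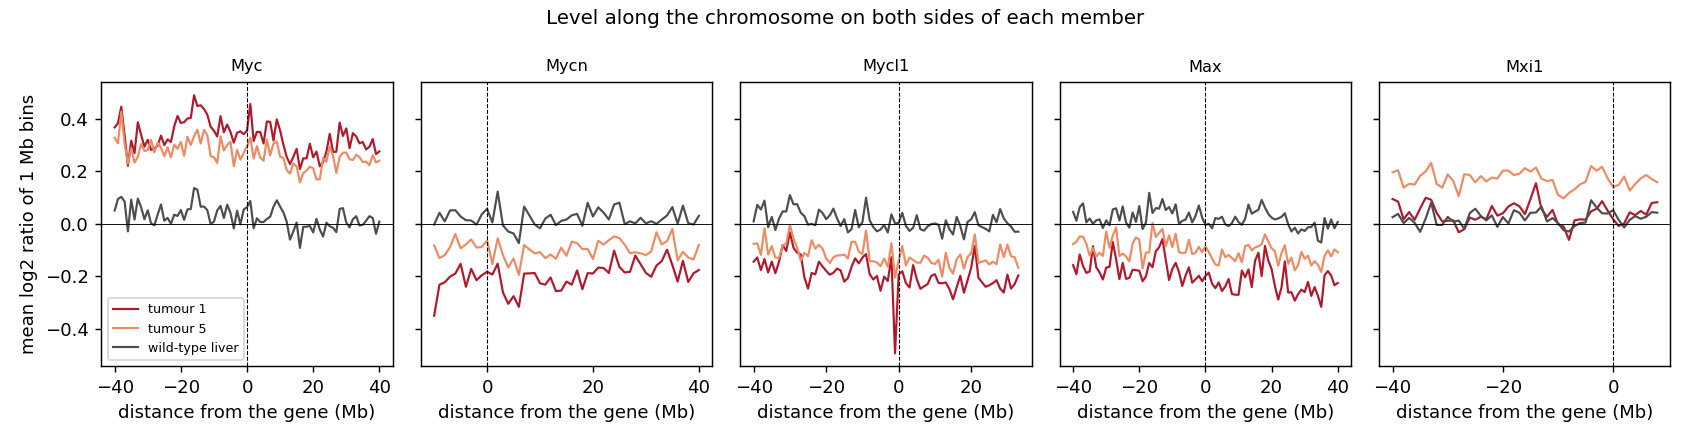
Mean log2 ratio in 1 Mb bins (vertical axis) against the distance from each gene in Mb (horizontal axis, negative towards lower positions) in tumour 1, tumour 5 and the wild-type liver. Around Myc both tumour lines stay above 0 and above the wild-type line across the 40 Mb shown on each side, with no narrow peak at the gene. The low 1 Mb bin beside Mycl1 holds 22 probes and read -0.49 in tumour 1, -0.21 in tumour 5 and, not drawn, -0.33 in tumour 6, against -0.31 in the FEAT normal liver (not drawn) and 0.00 in the wild-type liver. In tumours 2, 3 and 4, also not drawn, it read -0.09, -0.01 and -0.08.

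Mycn and Mycl1, the paralogues known for amplification in human neuroblastoma and small cell lung cancer, were gained in 0 of 6 tumours. The Mycn window read -0.18, 0.04, 0.07, -0.04, -0.06 and 0.02 in tumours 1 to 6, against -0.00 in the FEAT normal and 0.06 in the wild-type liver. The Mycl1 window read -0.19, 0.01, 0.04, -0.01, -0.14 and -0.01 in tumours 1 to 6, against 0.04 in the FEAT normal and 0.00 in the wild-type liver. Tumour 1 was the lowest array for both genes and tumour 5 the next lowest, while the other 4 tumours lay between -0.04 and 0.07.

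Each of them was called lost in tumour 1 alone. Mycn lay there in a segment of 29.0 Mb with a mean of -0.23, and Mycl1 in a segment of 33.2 Mb with a mean of -0.22 that reached the end of the probes on chromosome 4. In tumour 5 the Mycl1 segment had a mean of -0.13 and the Mycn segment -0.10, neither of them called. The segment means in tumour 1 lay close to the threshold, and the window means of -0.18 and -0.19 did not reach it.

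Max, the shared partner without which Myc proteins do not bind their sites, was also called lost in tumour 1 alone. Its window read -0.20, 0.03, 0.08, -0.02, -0.09 and 0.02 in tumours 1 to 6, against 0.01 in the FEAT normal and -0.00 in the wild-type liver. The segment in tumour 1 spanned 19.2 Mb with a mean of -0.23, just past the threshold, which the window mean of -0.199 did not reach. Max shares chromosome 12 with Mycn, and the losses of the pair are not independent: 60.0% of the probes of that chromosome were in lost segments in tumour 1, and its median was -0.24. In tumour 5 Max and Mycn lay in 1 segment of 96.5 Mb with a mean of -0.10.

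Mxi1, the competitor of Myc for Max, was called in no array. Its window read 0.01, -0.05, 0.00, 0.06, 0.14 and -0.01 in tumours 1 to 6, against 0.01 in the FEAT normal and 0.04 in the wild-type liver. Tumour 5 was the highest, with a segment mean of 0.17 over 14.6 Mb and a chromosome 19 median of 0.15. Tumour 2 was the lowest, with a chromosome 19 median of -0.08. The other 4 tumours overlapped the non-tumour livers or lay less than 0.03 from them.

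By array, tumour 1 had 4 of 5 members called, with Myc gained and Mycn, Mycl1 and Max lost. In that tumour 4.01% of all named genes were in gained segments and 9.64% in lost ones. Tumour 5 had 1 of 5 called, the gain of Myc, where 14.5% of all named genes were gained and 13.5% lost. Tumour 4 had 0 of 5 called, with 4.64% of all named genes gained and 1.02% lost. Tumours 2, 3 and 6 also had 0 of 5 called, in arrays where gained segments held 0.0387%, 0.0193% and 0.0155% of named genes and lost segments 0.0348%, 0.0348% and 0.0503%. Both non-tumour livers had 0 of 5 called, with 0.00387% gained and 0.058% lost in the FEAT normal liver and 0.0619% gained and 0.0116% lost in the wild-type one. Across tumours, 5.33% of all named genes were gained in at least 2 of them, as Myc was, and 23.5% were lost in at least 1, as Mycn, Mycl1 and Max were.

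The spread between members followed the same split of arrays. The highest minus the lowest window mean was 0.55 in tumour 1 and 0.44 in tumour 5, and 0.05 to 0.11 in the other tumours, against 0.07 in the FEAT normal and 0.06 in the wild-type liver. In tumour 1, Myc stood 0.55 above Max, which is a ratio of 1.47 between the copy levels of the partners relative to the reference liver. In tumour 5 Myc stood 0.38 above Max, a ratio of 1.30.

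In tumour 1 the order was Myc, Mxi1, Mycn, Mycl1 and Max, and the last 3 lay within 0.02 of each other, less than the probe error of 1 window. In tumour 5 the order was Myc, Mxi1, Mycn, Max and Mycl1, with Mycn 0.03 above Max. Averaged over the tumours, the order was Myc at 0.14 ± 0.14, Mxi1 at 0.03 ± 0.07, Mycn at -0.03 ± 0.09, Max at -0.03 ± 0.10 and Mycl1 at -0.05 ± 0.09 (SD, n = 6). These SDs are of single genes between tumours. The members were read in the same arrays, so the SDs do not measure the spread of a gap between 2 genes. Within each array, Myc minus Mxi1 was 0.34, 0.11, 0.04, -0.01, 0.16 and 0.05 in tumours 1 to 6. It was 0.06 in the FEAT normal and 0.02 in the wild-type liver.

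Over all tumours as a group, no member differed from the non-tumour livers past the test's threshold. The 6 tumours were set against the 2 non-tumour livers as 1 group by limma, a linear model with a spread shared across genes, with Benjamini-Hochberg adjustment over 25843 gene windows. At an adjusted p of 0.05, 0% of gene windows passed, while for 0.135% the unadjusted p was under 0.05. The Myc window averaged 0.14 ± 0.14 in tumours (SD, n = 6) and 0.06 in non-tumour livers, a difference of 0.08 with a 95% confidence interval of -0.12 to 0.27 (limma, adjusted p = 0.998).

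The same difference was -0.06 for Mycn (interval -0.20 to 0.08), -0.07 for Mycl1 (interval -0.21 to 0.07) and -0.04 for Max (interval -0.18 to 0.11), each with a limma adjusted p of 0.998. For Mxi1 it was -0.00 (interval -0.11 to 0.11, limma adjusted p = 1.00). The exact permutation test over the 28 splits of the arrays, which cannot go below a two-sided p of 0.0714, gave p = 1 for Myc and p = 0.357 for Mycl1. With 1 array left out in turn, the Myc difference was 0.03 without tumour 1 and 0.05 without tumour 5, and at most 0.10 otherwise. No member's window separated all 6 tumours from both non-tumour livers, as 4.95% of gene windows did upwards and 0.159% downwards. These intervals leave room for group differences of up to about 0.27 for Myc.

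**Figure D3:**
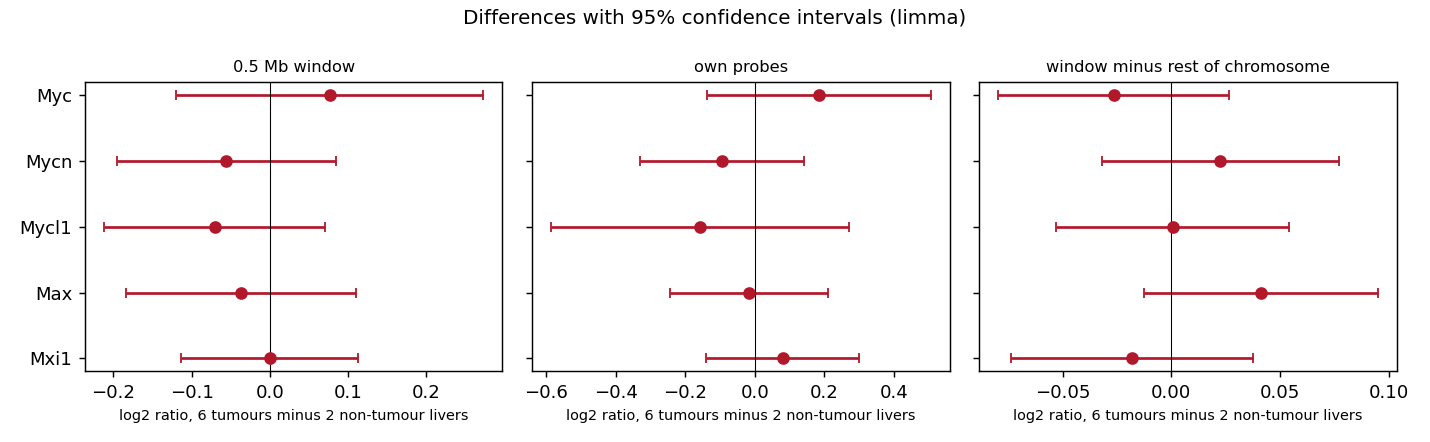
Difference in log2 ratio, 6 tumours minus 2 non-tumour livers (horizontal axis), for each gene by 3 measures: the 0.5 Mb window, the gene's own probes, and the window minus the rest of its chromosome. Points are limma estimates and whiskers 95% confidence intervals, and every interval includes 0. The horizontal scales differ between panels.

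To set the gene apart from shifts of its whole chromosome, the window was also read relative to the median of the other probes on that chromosome. The relative Myc window was 0.06, 0.06, 0.04, 0.01, 0.05 and 0.03 in tumours 1 to 6, against 0.07 in the FEAT normal and 0.07 in the wild-type liver. All 6 tumours, the 2 with a gain included, lay below both non-tumour livers, as did 0.0602% of all genes. The closest was tumour 1 at 0.0586, against 0.0661 in the wild-type liver. That gap was smaller than the probe error of the Myc window mean in tumour 1, 0.0302. The difference was -0.03 ± 0.03 (SE; limma adjusted p = 1.00; exact permutation p = 0.0714, the smallest possible).

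The relative Max window was 0.04, 0.02, 0.08, 0.07, 0.04 and 0.03 in tumours 1 to 6, against 0.01 in the FEAT normal and 0.00 in the wild-type liver. All 6 tumours lay above both, as did 3.94% of all genes, with a difference of 0.04 ± 0.03 (SE; limma adjusted p = 1.00; exact permutation p = 0.0714). The closest was tumour 2 at 0.024, against 0.011 in the FEAT normal liver, a gap smaller than its window's probe error of 0.0234. Neither separation held for every reading of the same data. With the median over probes, 1 of 6 tumours lay below both non-tumour livers for Myc and 2 of 6 above both for Max. With a window of 1 Mb on each side these counts were 5 of 6 for Myc and 3 of 6 for Max.

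The relative windows of Mycn, Mycl1 and Mxi1 gave differences of 0.02, 0.00 and -0.02, with tumours and non-tumour livers overlapping (limma adjusted p = 1.00 for each). On this measure limma called 0% of 24911 genes, while for 0.883% the unadjusted p was under 0.05.

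The single probes that bear the gene names were much noisier than the windows. The Myc probe read -0.09, 0.13, 0.12, -0.25, 0.22 and -0.10 in tumours 1 to 6, against -0.36 in the FEAT normal and -0.00 in the wild-type liver. In tumour 1 it lay 0.45 below the mean of its window, and in the FEAT normal liver 0.42 below. It therefore did not show by itself the gain that 73 of 79 probes around it showed in tumour 1.

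The Mycn probe was below 0 in all 8 arrays, from -0.36 to -0.07 in tumours, against -0.12 in the FEAT normal and -0.07 in the wild-type liver. The Mycl1 probe read -0.61, -0.19, 0.29, -0.20, -0.38 and -0.04 in tumours 1 to 6, against -0.04 in the FEAT normal and -0.03 in the wild-type liver. For Mycl1, 5 of 6 tumours lay below both non-tumour livers, and tumour 3 lay above them.

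The 3 Max probes, within 14.6 kb, disagreed. Probe 1 read 0.46, -0.40, 0.68, 0.66, 0.33 and 0.12 in tumours 1 to 6, against -0.04 in the FEAT normal liver, and had no value in the wild-type liver, where its test signal was 87.5, against 2275 and 2379 for the other Max probes. Probe 3 read -0.73, -0.30, -0.37, -0.85, -0.44 and -0.56 in tumours 1 to 6, against -0.50 in the FEAT normal and -0.14 in the wild-type liver. Its tumour mean lay at the 1.30th percentile of all probes. All 7 arrays of FEAT mice were below the wild-type liver at probe 3, the FEAT normal liver included, as at 17.5% of all probes measured in every array.

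Max probe 2, between them, read -0.32 to -0.04 in tumours, against 0.14 in the FEAT normal and 0.00 in the wild-type liver. All 6 tumours were below both non-tumour livers at that probe, as at 1.77% of the 225482 probes with a value in all 8 arrays. The Mxi1 probes also scattered: the second read 0.16 to 0.60 in tumours, against 0.49 in the FEAT normal and 0.13 in the wild-type liver, and the fourth read -0.26 to 0.77 in tumours, against -0.13 in the FEAT normal and 0.01 in the wild-type liver.

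Averaged per gene, the own probes gave differences between tumours and non-tumour livers of 0.18 ± 0.14 for Myc, -0.09 ± 0.11 for Mycn, -0.16 ± 0.19 for Mycl1, -0.02 ± 0.10 for Max and 0.08 ± 0.10 for Mxi1 (SE; limma adjusted p = 1.00 for each). The Max value in the wild-type liver rests on 2 of its 3 probes. With only the 2 probes measured in every array, an alternative chosen after seeing the data, Max averaged -0.33 ± 0.14 in tumours (SD, n = 6) and -0.12 in non-tumour livers, a difference of -0.21 ± 0.11 (SE; limma adjusted p = 1.00). In the mean of own probes no member separated all 6 tumours from both non-tumour livers, as 2.93% of genes did upwards and 1.57% downwards. Across the 25425 genes with own probes, limma called 0%, and the unadjusted p was under 0.05 for 2.6%.

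**Figure D4:**
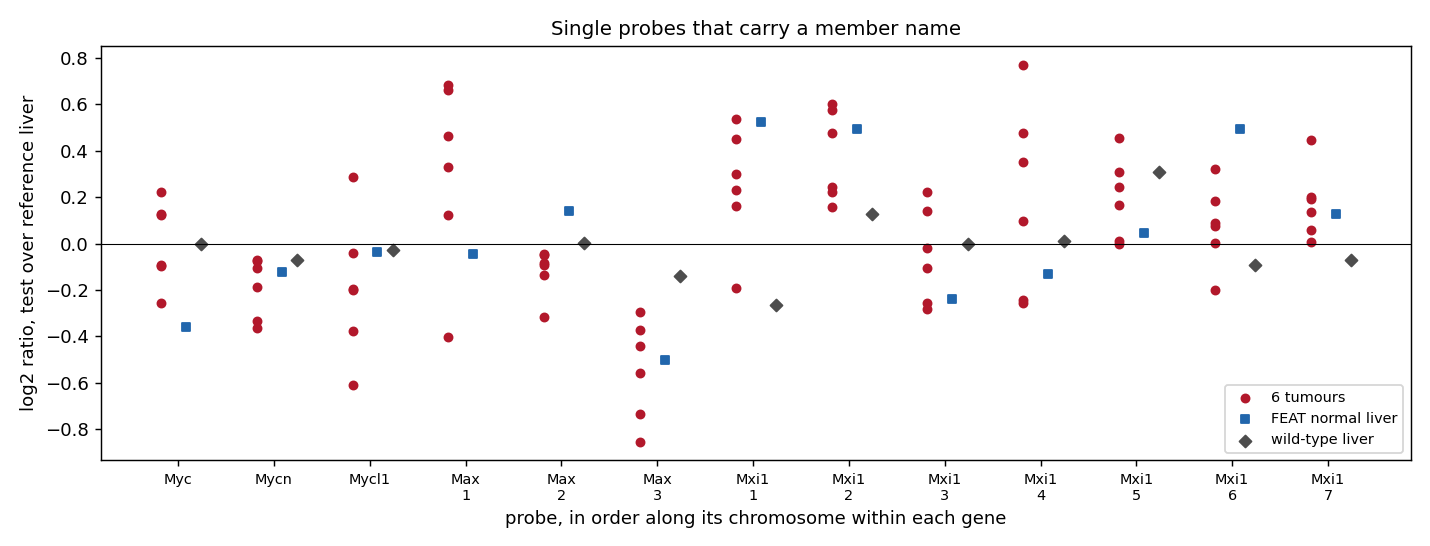
Log2 ratio (vertical axis) of each of the 13 probes that bear a member's name, ordered along the chromosome within each gene. Circles are the 6 tumours, squares the FEAT normal liver and diamonds the wild-type liver, and Max probe 1 has no diamond because it has no value there. Max probe 3 lies at -0.30 to -0.85 in tumours and at -0.50 in the FEAT normal liver, and Max probe 1 spreads from -0.40 to 0.68 in tumours.

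The wider network was followed in 5 lists of 59 genes, of which 54 were found on the array. Called at least once, 13 of the 54 were gained and 13 lost in a tumour, and 8 of the gained ones are neighbours of Myc, chosen for their position. Without the neighbours, 5 of 46 (10.9%) were gained and 13 of 46 (28.3%) lost, beside 17.8% gained and 23.5% lost of all named genes. With the neighbours included, 9 of the 54 were gained and 5 lost in tumour 1, and 13 gained and 8 lost in tumour 5. All 8 neighbours are among the gained genes in both of these tumours. Of all named genes, 4.01% were gained and 9.64% lost in tumour 1, and 14.5% and 13.5% in tumour 5. In tumour 4, 1 list gene was gained and 0 lost, where 4.64% of all named genes were gained and 1.02% lost. In tumours 2, 3 and 6 the counts were 0 and 0. No list gene passed limma on its window (adjusted p of 0.998 or above). The values given with these calls are window means.

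The list of partners held partners of Max, its relative Mlx, partners of Mlx, and Mycbp. Of its 8 measured genes, 0 were gained and 2 lost in a tumour. These were Mxd3, a repressor paired with Max, at -0.16 in tumour 5, and Mycbp, which encodes a Myc-binding protein, at -0.17 in tumour 1. Mycbp lies on chromosome 4 as Mycl1 does. Mxd4 and Mlx had the highest tumour means of the list, 0.04 ± 0.03 and 0.01 ± 0.05 (SD, n = 6), against 0.01 and -0.01 in non-tumour livers. The median difference of the list was -0.00, beside 0.01 over all named genes.

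Of 14 measured cofactors, 0 were gained and 4 lost in a tumour. Zbtb17, which encodes the Myc-bound transcription factor Miz1, read -0.25 and the deacetylase gene Hdac1 -0.22 in tumour 1, and both lie on chromosome 4 as Mycl1 does. The corepressor gene Sin3a, through which Mxi1 represses, read -0.34, and the helicase gene Ruvbl2 read -0.25, in tumour 5. Sin3a also read -0.25 in tumour 4, where its segment was not called. Sin3a and Zbtb17 had the lowest tumour means of the list, each -0.12, with SDs of 0.14 and 0.10 (n = 6), against -0.04 and -0.07 in non-tumour livers. Hdac3 and Ep400 had the highest, 0.05 ± 0.11 and 0.04 ± 0.03 (SD, n = 6), against 0.03 and -0.01. The median difference was 0.01.

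Of 8 measured genes of Myc protein turnover, 2 were gained and 2 lost in a tumour. Skp2, a ubiquitin ligase subunit that acts on Myc and lies on chromosome 15 with it, was gained in tumours 1 and 5 at 0.28 and 0.26, against -0.03 in the FEAT normal and 0.02 in the wild-type liver. Fbxw7, whose product marks Myc for destruction, was gained in tumour 5 at 0.18. None of the 54 list genes reported here was lost in 2 or more tumours, as 0.689% of all named genes were.

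The deubiquitinase gene Usp28 and the kinase gene Plk1 were lost in tumour 5, at -0.33 and -0.26. Usp28 lies on chromosome 9 as Sin3a does, and Plk1 on chromosome 7 as Ruvbl2 does. Pim1, a kinase gene that cooperates with Myc in mouse lymphoma, was called in no tumour. Its window was 0.02 to 0.17 in tumours, against -0.00 in the FEAT normal and 0.01 in the wild-type liver, so all 6 tumours were above both, as were 4.95% of all gene windows. The median difference of the list was 0.01.

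Of 16 Myc target genes, all measured, 3 were gained and 5 lost in a tumour. Hspd1, a mitochondrial chaperonin gene, was gained in tumours 4 and 5 at 0.17 and 0.26, and Ncl (nucleolin) and Ddx18 were gained in tumour 5 at 0.29 and 0.31. Hspd1, Ncl and Ddx18 all lie on chromosome 1, so their calls may not be independent. Odc1, the rate-limiting enzyme of polyamine synthesis, was lost in tumour 1 at -0.29, and the glycolytic gene Eno1 at -0.22. Odc1 lies on chromosome 12 as Mycn and Max do, and Eno1 on chromosome 4 as Mycl1 does. Ldha, Fbl and Cdc25a were lost in tumour 5, at -0.31, -0.26 and -0.31. Ldha and Fbl lie on chromosome 7, and Cdc25a on chromosome 9. The median difference was 0.00. DNA copy was measured and not RNA, so the activity of these targets was not assessed.

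All 8 measured neighbours of Myc on chromosome 15 (Sqle, Trib1, Nsmce2, Tatdn1, Asap1, Adcy8, Ptk2 and Atad2) were gained in both tumours 1 and 5. They lie in the same broad gain, so the count restates its width. Trib1 and Tatdn1 had the highest tumour means, 0.17 ± 0.12 and 0.16 ± 0.12, and Asap1 and Ptk2 the lowest, 0.10 ± 0.14 and 0.10 ± 0.13 (SD, n = 6). Myc at 0.35 in tumour 1 lay inside the range of these neighbours, from 0.29 at Ptk2 to 0.37 at Trib1. In tumour 5, Myc at 0.29 lay above the highest of them, Tatdn1 at 0.28, by less than its probe error.

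**Figure D5:**
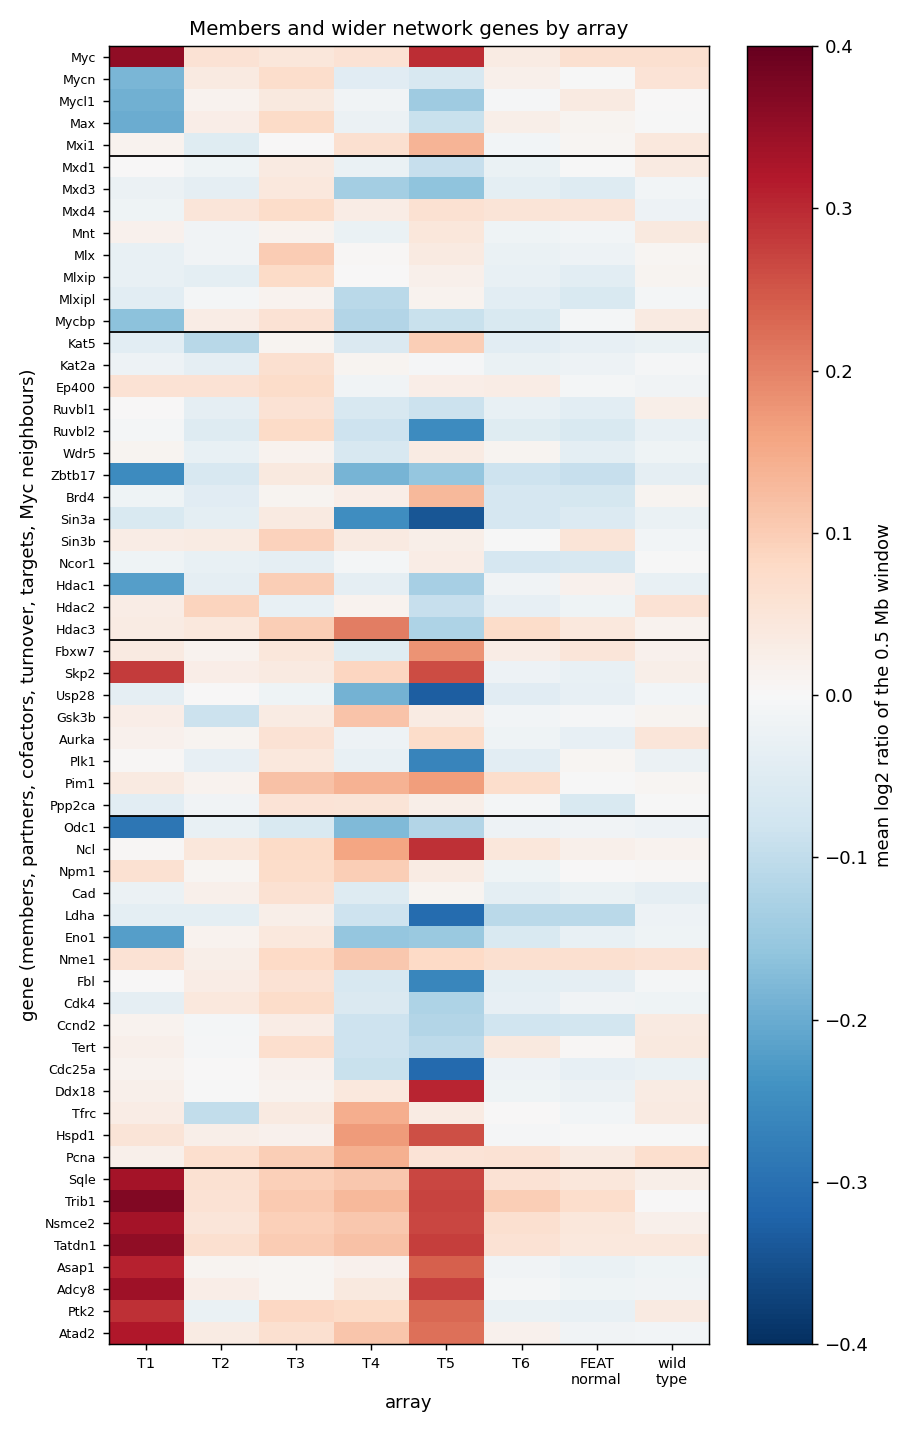
Mean log2 ratio of the 0.5 Mb window (colour, red above 0 and blue below) for the 5 members and 54 list genes (rows) in tumours 1 to 6 (T1 to T6) and the FEAT normal and wild-type livers (columns). Black lines separate the members, partners, cofactors, turnover genes, targets and Myc neighbours. Strong colours are mostly in the columns of tumours 1 and 5, and the 8 neighbours carry the same red as Myc in both.

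Across the 8 arrays, the window pattern of each member was set against genes on other chromosomes, and 1 gene was taken from each of the 2 chromosomes with the highest correlation. For Mycn the likest was Csf3r on chromosome 4 (Pearson r = 0.997), for Mycl1 Rtn1 on chromosome 12 (r = 0.985), and for Max 9430007A20Rik on chromosome 4 (r = 0.992). Chromosomes 4 and 12 both had their lowest medians in tumours 1 and 5. For Mycn, Mycl1 and Max these r were the highest among 24902, 24266 and 24902 genes. All are a description over 8 arrays that share 1 reference. The second chromosome was the Y for all 3, where Uty had r of 0.988, 0.914 and 0.951. Its window was lowest in tumour 1, at -0.67, and read -0.31 in tumour 5, against -0.00 in the FEAT normal and 0.13 in the wild-type liver.

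For Mxi1, of 24997 genes compared, the likest were B630019K06Rik on the X chromosome (r = 0.970) and Rps6ka2 on chromosome 17 (r = 0.964). For Myc, of 24815 genes compared, they were AK083486 on chromosome 2 (r = 0.941) and AK156963 on chromosome 8 (r = 0.929). The windows of these last genes were only -0.04 to 0.05 over all arrays, so that their likeness is in shape and not in size.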

How the data were processed

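Genomic DNA of 8 mouse livers was measured on 2-colour Agilent 244A arrays, test DNA in Cy3 and reference in Cy5, per the labels. The deposited values of the authors are log2 ratios. On the wild-type array, whose scanner file was at hand, they equalled the deposited log10 ratio (red over green, per the file headers) multiplied to base 2 and reversed in sign, plus 0.0014 (r = -1 over 231977 spots). For the other 7 arrays the direction is taken from the labelled dyes. Centring by the authors is not stated. Per the file headers, that scanner file was written by Agilent Feature Extraction 9.1.3.1 (protocol CGH-v4_91). Its processed signals are intensity values, deposited by the authors with flags for dim, outlying or saturated spots. The number of arrays limits the precision.

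Here, arrays were centred on the autosomal median, with no loess or quantile step, and spots of 1 probe were averaged. Gene windows with at least 10 probes, own probes, and windows minus the rest of the chromosome were tested with limma 3.58.1 in R 4.3.3. The single arrays of the non-tumour groups were pooled as 1 group and assumed to vary like the tumours. Their differences in age and genotype thus count as spread within that group. The p-values set a difference against the spread between these samples. Segments came from penalised least squares (penalty factor 2, at least 5 probes, outlying values drawn in at 3 noise SDs). Scripts ran in Python 3.11.15 and were tested on simulated data. Members, lists and settings were chosen with earlier results of these data known. The text names members, list genes called in at least 2 tumours, and for each list the 2 highest and 2 lowest tumour means; other called list genes were named after their values were seen. Likeness was ranked over named genes on other chromosomes with at least 20 window probes, with 1 gene from each chromosome. Of 59 list genes, Mga, Trrap, Usp36, Pvt1 and Fam49b were not analysed here, and Kat5, Kat2a, Nsmce2 and Asap1 were matched by older names. A further gene was first chosen for the lists, taken out of them and not counted in the 59, and is not reported here. Alternatives covered centring, median against mean, GC correction, window size, flanks, dim probes, each array left out, and threshold, penalty and minimum length of segments.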

Additional observations from a re-analysis of the deposited data

How the results depend on the processing

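The calls of loss in tumour 1 depended on the settings, and the gain of Myc less so. Myc was gained in 1 tumour at a threshold of 0.3 and in 3 at 0.1, and in 2 under the 6 other alternatives for segments. Mycn, Mycl1 and Max were each lost in 2 tumours at 0.1, in 0 at 0.3 and in 0 when the window mean replaced the segment. Mycn was lost in 0 tumours at a penalty factor of 1, and Mycl1 in 0 with centring on the mode. Mxi1 was gained in 1 tumour at 0.1, and at a penalty factor of 1 it was called in 1 non-tumour liver. The limma count over all genes was 0 under every alternative except 2: 13 genes on own probes without the wild-type liver, and 21 genes on windows minus chromosome without the FEAT normal liver. No member passed in either, or under any other alternative.

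The Mxi1 window difference, near 0, turned to 0.0116 with centring on the mode, 0.0125 with values as deposited, 0.00789 with the median over probes, and 0.00144, 0.00813 and 0.0226 with windows of 0.25, 1 and 2 Mb. With each array left out in turn it ranged from -0.0225 to 0.0173. On own probes with arrays left out, Max ranged from -0.0569 to 0.0174, positive without tumour 2 or the wild-type liver, and Mxi1 from -0.0128 to 0.173, negative without the wild-type liver. Myc on its own probe was 0.0053 without the FEAT normal liver and 0.36 without the wild-type liver. Relative to the chromosome, Mycn turned to -0.00541 with the median and -0.0226 with a window of 0.25 Mb, and ranged from -0.00801 to 0.0529 with arrays left out. Mxi1 turned to 0.00546 with a window of 2 Mb, and Mycl1 ranged from -0.0137 to 0.0149 with arrays left out. The cause was not tested. Probe noise limits what single probes can show, most in tumour 4. No paired analysis was possible with 1 FEAT normal and 1 wild-type liver against 6 tumours.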
